A study of Mus musculus with 32 samples.

Results

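8 genes known as markers of brain tissue that lies next to the cortical dissection were followed through 32 frontal cortex libraries. 4 of them, Ppp1r1b, Penk, Adora2a and Rgs9, are high in striatum, and the other 4, Ttr, Enpp2, Kl and Folr1, are high in choroid plexus. They were selected by gene symbol and are 8 of the 33000 genes in the count table. The study names C57BL/6 as the strain of its wild-type mice. All mice were 3 months old. They were either wild type (WT) or homozygous GFAP-IL6 animals, which carry a transgene that places IL6 under the promoter of the astrocyte gene Gfap, so that IL6 is made in the brain. All libraries were made from total RNA of dissected and snap-frozen frontal cortex, and no treatment was named. 50, 10, 1 or 0.5 ng of RNA entered the reverse transcription, and the 8 groups, 1 per genotype at each input, held 4 libraries apiece, numbered 1 to 4. The sources used here did not state whether libraries with the same number came from the same mouse.

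The striatum lies beneath the frontal cortex and consists mainly of medium spiny neurons, which receive dopamine and project to the basal ganglia output nuclei. The choroid plexus is a secretory epithelium inside the ventricles that produces the cerebrospinal fluid. Because both tissues strongly express genes that are low in cortex, their transcripts are commonly used to judge how cleanly a cortical sample was dissected. Some of these genes are also made in cortex itself: Ppp1r1b by deep-layer neurons, Penk by a class of interneurons and Enpp2 by mature oligodendrocytes. In a bulk sample, fewer cells of a type and less RNA per cell cannot be told apart.

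Levels are given as CPM, the gene's count divided by the library's total and multiplied by 1000000. Totals ranged from 261378 to 9840302 counts, and a count of 3, taken here as the floor, corresponded to 0.305 to 11.5 CPM. The mean Pearson r of a library with the others of its group was 0.935 to 0.977 at 50 ng and 0.693 to 0.753 at 0.5 ng, and GFAP-IL6 replicate 4 had the lowest value at 50 ng. The genotype labels were checked with Il6, which at 50 ng was at most 0.277 CPM in WT and at least 0.717 CPM in GFAP-IL6, and at 10 ng at most 0.758 and at least 1.88 CPM. At 1 ng the genotypes overlapped for Il6 (13 counts in WT, and a GFAP-IL6 library at 0), and at 0.5 ng it had 0 counts in both, so the 16 libraries of these inputs were not checked by it. In the 50 and 10 ng libraries, all 10 excitatory neuron genes of the cortex list, such as Lamp5, Neurod6 and Tbr1, had a mean of at least 1 CPM. Their summed level in those libraries lay between 819 and 982 CPM.

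Ttr separated 1 set of libraries from the remaining ones. Ttr (chr18:20665280-20674321, plus strand, GRCm38) encodes transthyretin, the thyroxine carrier that choroid plexus epithelium secretes in large amounts. At 50 ng, Ttr stood at 72.5, 111, 3355 and 52.7 CPM in WT replicates 1 to 4. At 10 ng, the same WT replicates gave 50.6, 91.1, 3003 and 46.8 CPM. WT replicate 3 was therefore the only WT library above 111 CPM at both inputs. It stayed far above the others with less RNA, at 3079 CPM from 1 ng and 3110 CPM from 0.5 ng, where the other WT libraries reached at most 109 and 62.9 CPM. The 4 libraries of WT replicate 3 held 12056, 11887, 3833 and 4030 Ttr counts from 50 to 0.5 ng. Relative to the mean of the other 3 WT libraries, the level was 42.6-fold with 50 ng of RNA, 47.8-fold with 10 ng, 54.1-fold with 1 ng and 77.3-fold with 0.5 ng.

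A smaller difference of the same kind was seen in GFAP-IL6, where replicate 2 had the highest Ttr level at every input. At 50 ng, replicates 1 to 4 gave 149, 335, 138 and 61.8 CPM. At 10 ng they gave 104, 305, 116 and 29.7 CPM. Replicate 2 thus exceeded the mean of its 3 group mates 2.88-fold and 3.67-fold, and replicate 4 was the lowest at both inputs. At 1 and 0.5 ng replicate 2 stood at 230 and 193 CPM, with 60 and 57 counts, above 40.4 to 159 and 66.3 to 139 CPM in the other libraries.

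**Figure D1:**
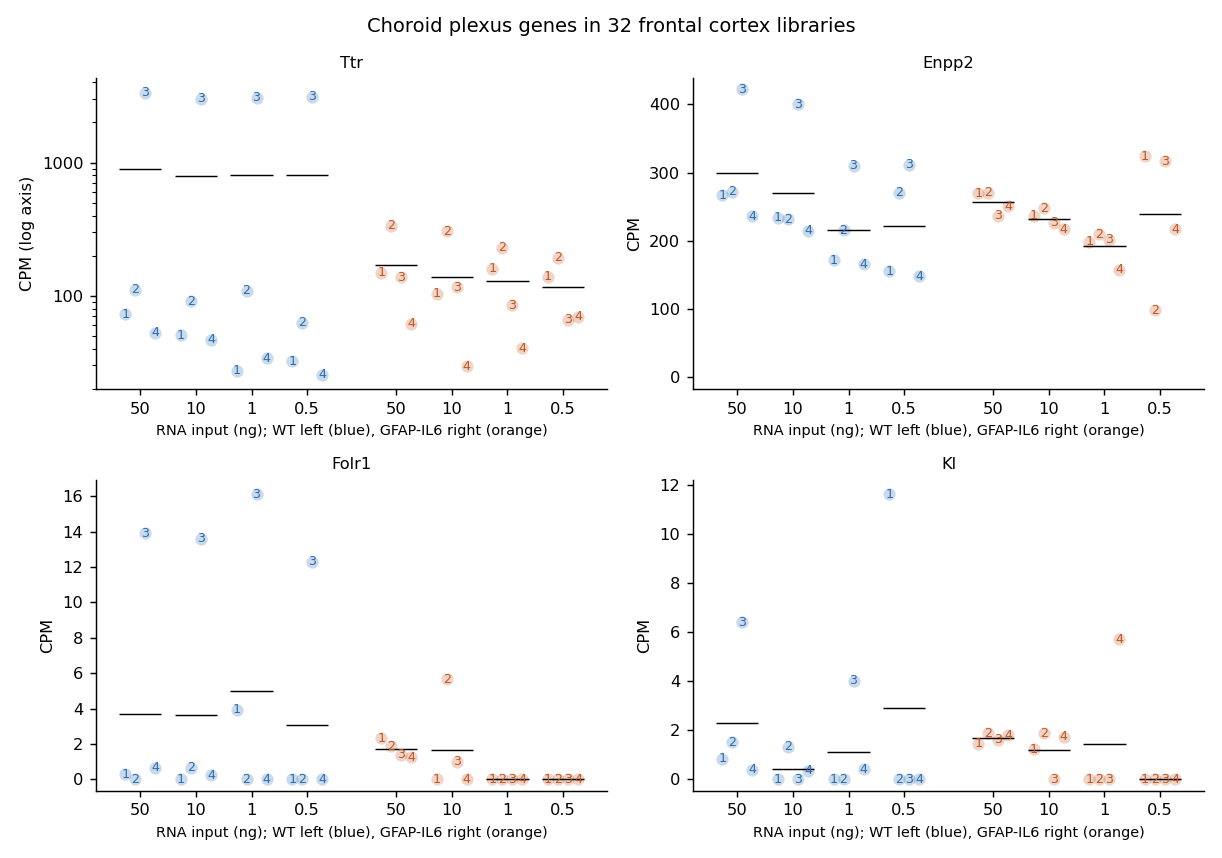
CPM of Ttr (log axis), Enpp2, Folr1 and Kl (linear axes) in each of 32 libraries, by RNA input in ng, with WT on the left and GFAP-IL6 on the right; digits are replicate numbers and bars are means of 4 libraries. WT replicate 3 is the highest WT library for Ttr, Enpp2 and Folr1 at all 4 inputs, with Ttr at 3003 to 3355 CPM.

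Enpp2 (chr15:54838901-54952892, minus strand) encodes autotaxin, a secreted enzyme that produces lysophosphatidic acid. Its levels in WT replicates 1 to 4 were 267, 272, 422 and 236 CPM at 50 ng, and 234, 232, 400 and 215 CPM at 10 ng. WT replicate 3 was again the highest, 1.63-fold and 1.76-fold above the mean of the other 3, and it remained the highest WT library at 1 ng (310 CPM) and 0.5 ng (312 CPM). In GFAP-IL6 the 4 libraries lay close together at 50 ng, between 237 and 271 CPM, and at 10 ng, between 217 and 248 CPM. Enpp2 had a high level in every library of 50 and 10 ng, in contrast to the concentration of Ttr in 1 WT number.

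Folr1 (chr7:101858331-101870788, minus strand), a folate receptor that moves folate into the cerebrospinal fluid, was close to the floor in nearly all libraries except those of WT replicate 3. From 50 to 0.5 ng of RNA, WT replicate 3 had 13.9, 13.6, 16.1 and 12.3 CPM, from 50, 54, 20 and 16 counts. The other WT libraries had 6, 3, 6 and 0 Folr1 counts in total at these inputs. In GFAP-IL6, the highest Folr1 value was 5.64 CPM, from 6 counts, in replicate 2 at 10 ng, and no count was found in any GFAP-IL6 library at 1 or 0.5 ng.

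Kl (chr5:150952607-150993817, plus strand), which encodes the hormone co-receptor klotho, did not follow this pattern at all inputs. WT replicate 3 had the highest WT value at 50 ng, 6.4 CPM from 23 counts, and at 1 ng, 4.02 CPM from 5 counts, but had 0 counts at 10 and 0.5 ng. The 32 libraries held 120 Kl counts in all, and 15 libraries had none. At this depth no order of the libraries could be read from Kl.

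In WT replicate 3, the amounts of Ttr, Enpp2 and Folr1 above the mean of the other WT libraries were in a roughly similar proportion from one input to the next. The difference in CPM was 3276, 2940, 3022 and 3070 for Ttr from 50 to 0.5 ng, against 164, 173, 125 and 120 for Enpp2. The Ttr difference was therefore 20, 17, 24.2 and 25.6 times that of Enpp2. For Folr1 the differences were 13.6, 13.3, 14.8 and 12.3 CPM, and the Ttr difference was 241, 221, 204 and 250 times as large. Kl kept no such proportion, with differences of 5.49, −0.559, 3.88 and −3.88 CPM.

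Further choroid plexus genes showed whether the same libraries stood out beyond the members. Of 16 such genes, 15 had a count in WT at 50 ng and 12 of these were highest in replicate 3. The numbers were 9 of 14 genes at 10 ng, 6 of 11 at 1 ng and 4 of 6 at 0.5 ng. Among the 12 at 50 ng, Slc4a5 rested on 1 count in replicate 3, Aqp1 and Cldn2 on 2 each and Wfikkn2 on 4, and they are named for that reason. The share of all genes that were highest in replicate 3 was not determined. Their summed level in WT replicate 3 was 83.2 CPM at 50 ng and 65.4 CPM at 10 ng, where the lowest WT library had 16.3 and 12.5 CPM. Kcnj13, an apical potassium channel of this epithelium, reached 28.7 CPM in WT replicate 3 at 50 ng, while the other 3 WT libraries had 0.752 to 6.1 CPM. At 10 ng the Kcnj13 values were 21.5 CPM in replicate 3 and 1.23 to 2.64 CPM in the others. The prolactin receptor Prlr, also high in choroid plexus, had 6.4 and 11.4 CPM in replicate 3 at 50 and 10 ng, against at most 2.21 and 4.11 CPM in the other WT libraries.

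Not all genes of this list took part. The sulfate transporter gene Slc13a4, which is also made in the meninges, was highest in WT replicate 4 at 50 ng (6.9 CPM) and in replicate 1 at 10 ng (8.23 CPM). The homeobox gene Msx1 was highest in WT replicate 2 at 50 ng (6.77 CPM) and in replicate 4 at 10 ng (4.87 CPM). 4 genes were picked out after their values had been seen, so they give no independent support. The transcription factor Otx2 had 13 counts in WT replicate 3 at both 50 and 10 ng, against 1 and 0 in the other 3 WT libraries together. The potassium channel subunit Kcne2 had 16 and 12 counts against 4 and 0, and the secreted signalling inhibitor Sostdc1 33 and 28 against 12 and 3. The chloride channel gene Clic6 had 36 and 10 against 7 and 9. At 1 and 0.5 ng, WT replicate 3 had 7 and 28 counts of Kcne2 and 9 and 33 of Sostdc1, but 0 of Otx2 at both. It had 1 and 0 counts of Clic6 there, against 11 and 4 in the other WT libraries together. In GFAP-IL6 at 50 ng, Sostdc1 had 23 counts in replicates 1, 3 and 4 together. Tmem72 had no count in any of the 32 libraries, and Aqp1 and Slc4a5 never exceeded 0.557 CPM at 50 and 10 ng. In GFAP-IL6 at 50 ng, 6 of 13 further choroid plexus genes with a count were highest in replicate 2, and their summed level there was 29.9 CPM against 11.5 to 24.9 CPM in the others. This did not hold at 10 ng, where replicate 2 was highest for 3 of 11 genes and its sum of 13.2 CPM lay below replicates 1 (16.5 CPM) and 3 (21.4 CPM), nor at 1 ng, where its sum was 11.5 CPM against 34.6 CPM in replicate 3. At 0.5 ng its sum was 61 CPM against at most 21.7 CPM, in a library of only 295022 counts. Replicate 2 was also the shallowest library at 50 ng, with 1071895 counts. Of its 6 genes there, Otx2, Kcne2 and F5 rested on 1 count each and Steap1 on 3, and they are named for that reason.

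**Figure D2:**
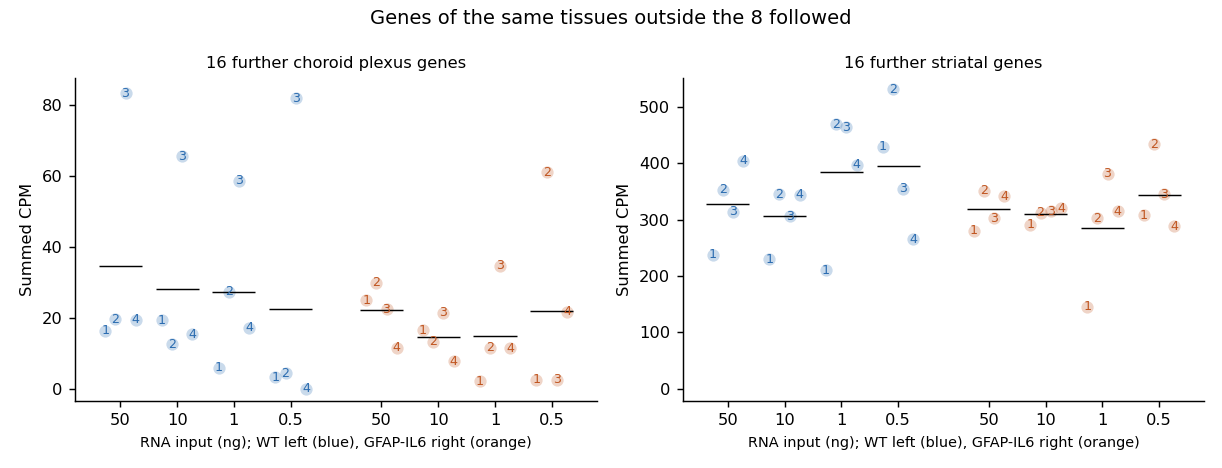
Summed CPM of 16 further choroid plexus genes (left) and 16 further striatal genes (right) in each of 32 libraries by RNA input in ng; digits are replicate numbers and bars are means of 4 libraries. WT replicate 3 is highest in the choroid plexus panel at all 4 inputs, with 58.6 to 83.2 CPM.

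Among the striatal genes, no library stood out to the same degree. Ppp1r1b (chr11:98348404-98357796, plus strand) encodes DARPP-32, the dopamine-regulated phosphatase inhibitor of medium spiny neurons. Its WT levels in replicates 1 to 4 were 114, 168, 127 and 146 CPM at 50 ng, and 96.2, 143, 108 and 147 CPM at 10 ng. In GFAP-IL6 they were 101, 106, 83.7 and 58.2 CPM at 50 ng, and 86.1, 78.9, 78.1 and 71.6 CPM at 10 ng. WT replicates 2 and 4 were the highest at both inputs, and GFAP-IL6 replicate 4 the lowest. At 1 and 0.5 ng the order differed: WT replicate 3 was the highest, at 119 and 131 CPM, and GFAP-IL6 replicate 4 (88.9 and 62.4 CPM) was not the lowest. The antisense gene 1700003D09Rik covers the 3′ end of Ppp1r1b in the annotation, and whether the counting used the strand is not given in the sources used here, so reads of both genes cannot be told apart.

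Penk (chr4:4133531-4138819, minus strand) encodes proenkephalin, the opioid peptide precursor of the indirect striatal pathway. Its levels in WT replicates 1 to 4 were 70, 129, 78.5 and 117 CPM at 50 ng, and 65.6, 141, 85.9 and 114 CPM at 10 ng. The order of the WT libraries, replicate 2, then 4, 3 and 1, was the same at both inputs. In GFAP-IL6, Penk was at 86, 73.7, 95 and 38.2 CPM at 50 ng, and at 74.8, 74.2, 86.9 and 55.5 CPM at 10 ng, again lowest in replicate 4. At 1 ng the highest WT value was in replicate 4 (94.4 CPM), and the lowest GFAP-IL6 value was in replicate 3 (44 CPM).

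Rgs9 (chr11:109225355-109298129, minus strand) encodes a regulator of G protein signalling that shortens dopamine receptor responses. WT replicates 1 to 4 had 2.49, 15.8, 2.5 and 10.2 CPM at 50 ng, from 9, 21, 9 and 77 counts. At 10 ng they had 1.65, 10.6, 5.81 and 11.9 CPM, from 8, 16, 23 and 100 counts. WT replicates 2 and 4 were thus above 1 and 3 at both inputs. At 1 ng, replicates 1 to 4 had 1.31, 10.9, 3.21 and 11.4 CPM, from 2, 4, 4 and 28 counts. The value of replicate 2 there was close to the floor of its library, 8.19 CPM, so its place in the order was uncertain. At 0.5 ng, replicates 2 and 4 were not both above 1 and 3, with 2.49, 0, 0 and 2.66 CPM from at most 7 counts. The GFAP-IL6 libraries lay between 3.46 and 7.82 CPM at 50 and 10 ng.

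Adora2a (chr10:75316877-75334784, plus strand), the adenosine receptor of the indirect pathway, was barely detected. It had 10 counts over all 32 libraries, never more than 3 in one library, and none in 25 of them. Drd2, the dopamine receptor of the same neurons, had no count in any library, although 14 of the 16 further striatal genes had a mean of at least 1 CPM at 50 and 10 ng. In the deepest library, a count of 0 allows a level of up to 0.305 CPM.

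**Figure D3:**
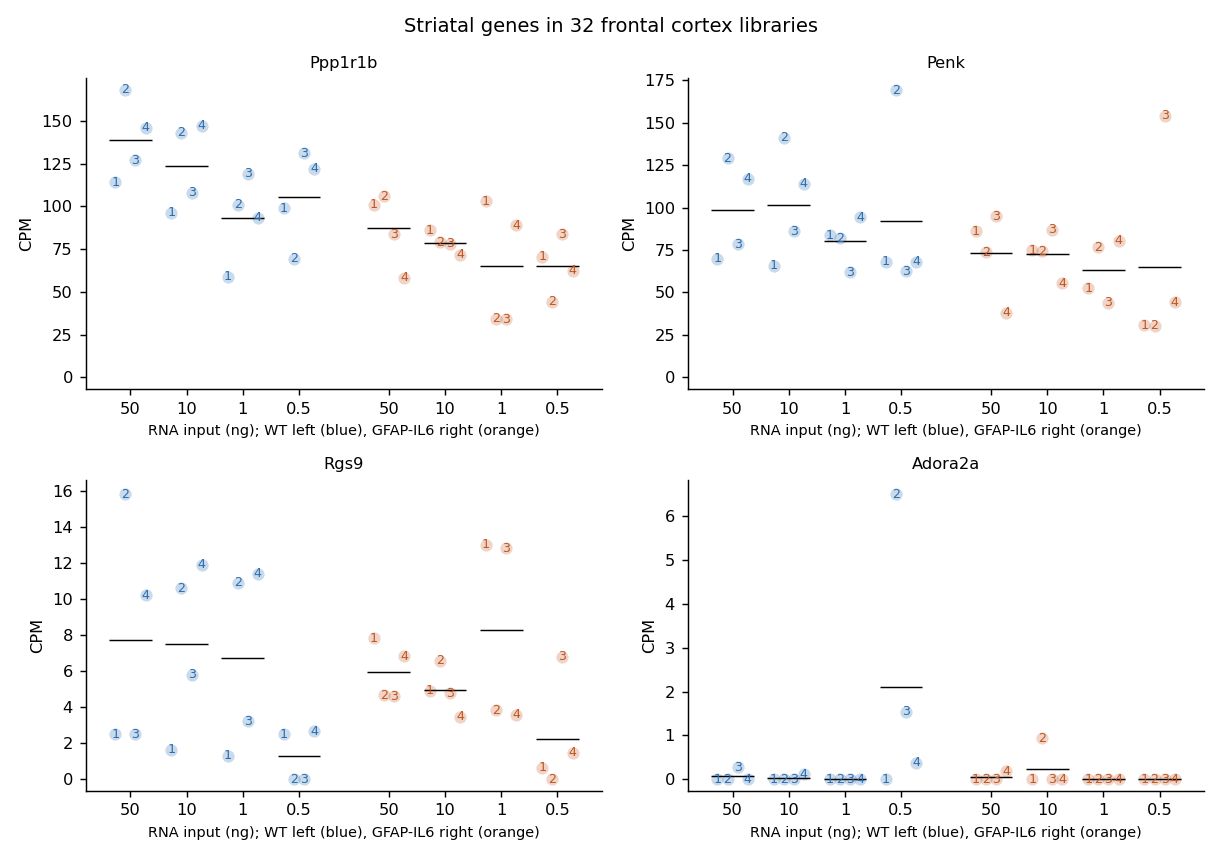
CPM of Ppp1r1b, Penk, Rgs9 and Adora2a in each of 32 libraries by RNA input in ng, with WT on the left and GFAP-IL6 on the right; digits are replicate numbers and bars are means of 4 libraries. Ppp1r1b lies at 114 to 168 CPM in WT and 58.2 to 106 CPM in GFAP-IL6 at 50 ng, and Adora2a is at or below 0.939 CPM in all libraries of 50 and 10 ng.

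The 16 further striatal genes were summed in the same way. In WT their sum ranged from 238 to 404 CPM at 50 ng and from 230 to 345 CPM at 10 ng, lowest in replicate 1 at both inputs. Tac1, the precursor of substance P, was highest in WT replicate 2 at both inputs, at 66.9 and 87.2 CPM, and Pde10a, a striatal phosphodiesterase, in replicate 4, at 64.5 and 45.6 CPM. Adcy5, the main striatal adenylyl cyclase, differed less, with WT values of 19.6 to 34.9 CPM at 50 ng and 30.6 to 39.4 CPM at 10 ng.

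Whether libraries with the same number shared a level was asked by testing the 4 numbers of a genotype against each other in the 16 libraries of 50 and 10 ng together, with input as a covariate. The residual spread of this test is that between libraries of the same number, which may be technical. Genes were called at an adjusted p under 0.05 in edgeR's quasi-likelihood test with Benjamini-Hochberg adjustment over all genes tested. 5 of the 8 members passed the filter on low counts, and Adora2a, Kl and Folr1 did not. In WT, all 5 tested members were called, whereas 1.74% of 12599 genes were. The members were chosen with earlier results of these data known, so this is not an independent contrast. Of the 219 called genes, replicate 3 was the number farthest from the others, above in 35 and below in 110. The median range between the highest and the lowest number was 1.05 on the log2 scale for the 5 members and 0.5 for all genes.

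Ttr had the smallest p of all genes in WT, with a range of 5.89 on the log2 scale between numbers (edgeR adjusted p = 1.028e-34). Enpp2 ranged over 0.76 (edgeR adjusted p = 4.649e-05), Penk over 1.05 (edgeR adjusted p = 0.000179), Rgs9 over 2.72 (edgeR adjusted p = 0.00787) and Ppp1r1b over 0.62 (edgeR adjusted p = 0.0271). Replicate 3 lay 5.46 above the mean of the other 3 numbers for Ttr and 0.66 above for Enpp2. For Rgs9 and Penk, replicate 2 lay 1.58 and 0.72 above, and replicate 1 deviated by −2.05 and −0.68. When the libraries numbered 3 were left out in both genotypes, Penk, Rgs9 and Ttr remained called, Ppp1r1b and Enpp2 did not (edgeR adjusted p = 0.306 and 0.92), and the share over all genes fell to 0.151%. Ppp1r1b was also not called without the libraries numbered 1 or 2 (edgeR adjusted p = 0.184 and 0.0918), and Rgs9 not without those numbered 1 (0.145). With the 1 and 0.5 ng libraries added, only Ttr and Folr1 of the members were called in WT (edgeR adjusted p = 8.547e-26 and 0.0364). Folr1 passed the filter there through the WT replicate 3 libraries, at 12.3 to 16.1 CPM, while no other library exceeded 5.64 CPM. Its call rests on those same libraries and gives no independent support. The log2 ranges of Penk, Rgs9 and Enpp2 were 0.99, 1.92 and 0.79.

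In GFAP-IL6, where 30.4% of all genes differed between numbers, 3 of the 5 tested members were called. Ttr ranged over 2.92 on the log2 scale (edgeR adjusted p = 3.283e-17), Penk over 0.90 (edgeR adjusted p = 0.000219) and Ppp1r1b over 0.55 (edgeR adjusted p = 0.0175). Rgs9 and Enpp2 ranged over 0.51 and 0.25 and were not called (edgeR adjusted p = 0.843 and 0.206). For Ttr, replicate 2 lay 1.90 above the mean of the other numbers, and replicate 4 deviated by −1.99. Many genes of this genotype set replicate 4 apart: of the 3829 called genes, it was the number farthest from the others, above in 1082 and below in 1651. Without the libraries numbered 4, 3.94% of all genes were called and Ttr was the only member among them (log2 range 1.44, edgeR adjusted p = 7.746e-18), while Penk ranged over 0.20 (edgeR adjusted p = 0.795) and Ppp1r1b over 0.30 (edgeR adjusted p = 0.359). Whether a member's differences between numbers were larger in one genotype than in the other was not tested.

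**Figure D4:**
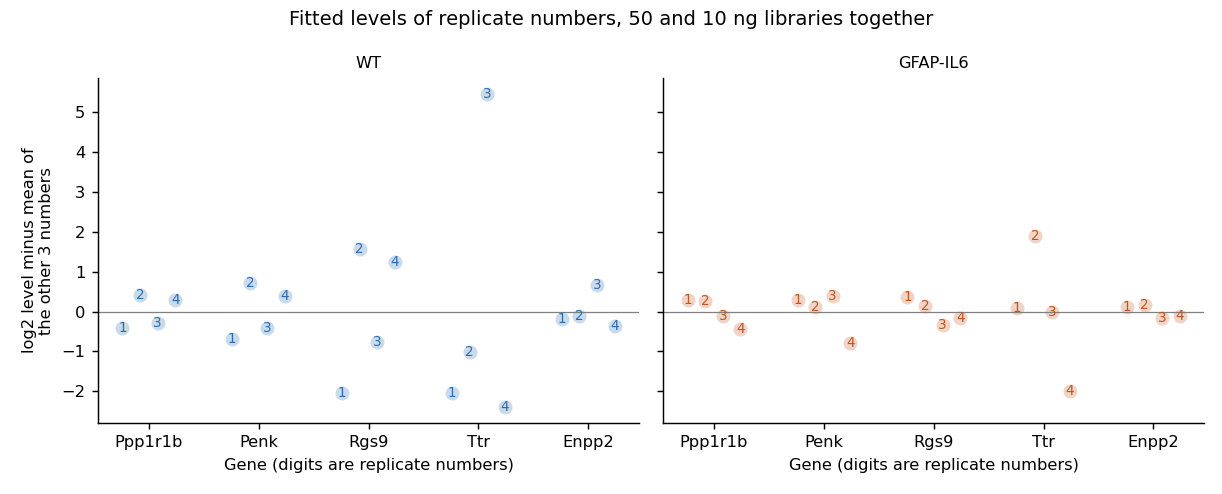
Fitted log2 level of each replicate number minus the mean of the other 3 numbers, from the 50 and 10 ng libraries together, for the 5 members that passed the filter in WT (left) and GFAP-IL6 (right). WT replicate 3 lies 5.46 above the others for Ttr, and GFAP-IL6 replicate 2 lies 1.90 above.

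The same test was read for the gene lists of other tissues and cells. The counts below stand beside shares over all genes of 1.74% in WT and 30.4% in GFAP-IL6. Of the further striatal genes, 13 of 16 were tested and 2 were called in each genotype, Pde10a in both (edgeR adjusted p = 0.00949 in WT and 0.00308 in GFAP-IL6). Of the further choroid plexus genes, 5 of 16 were tested and 2, Kcnj13 and Sostdc1, were called in WT, and 0 in GFAP-IL6, where 30.4% of all genes were. Mature oligodendrocyte genes, which label cells that also make Enpp2, were called in 6 of 10 in WT and 7 of 10 in GFAP-IL6, and their summed level at 50 ng was 5547, 7646, 7605 and 5607 CPM in WT replicates 1 to 4. WT replicates 2 and 3 were both high for this list, at 7707 and 7636 CPM also at 10 ng, while Enpp2 was high in replicate 3 alone. Ependymal genes, from the cells that line the ventricles, were called in 0 of 3 tested in WT and 1 of 3 in GFAP-IL6. Their summed level over 5 genes was 32.3 CPM in both WT replicates 2 and 3 at 50 ng, and at 10 ng 33.1 CPM in replicate 3 against 15.1 to 19.2 CPM in the others. Cortical interneuron genes, which label cells that also make Penk, were called in 0 of 6 in WT and 5 of 6 in GFAP-IL6. Excitatory neuron genes were called in 1 of 9 and 5 of 9, meningeal and vessel fibroblast genes in 0 of 5 and 2 of 5, thalamic genes in 0 of 4 and 1 of 4, and olfactory bulb genes in 0 of 2 in each genotype. The part of these cells in the members' levels was not tested.

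The members' levels were also compared with each other over the 16 libraries of 50 and 10 ng, after the mean of each of the 4 groups had been subtracted from log2(CPM + 1). As a description, Ppp1r1b and Penk had a Pearson r of 0.863, and their r with Rgs9 was 0.604 and 0.634. Ttr had an r of 0.952 with Enpp2 and 0.927 with Folr1. The WT replicate 3 libraries were the highest points for each of these genes, with Ttr at 3355 and 3003 CPM, and r without them was not computed. In GFAP-IL6 replicate 2 at 50 ng, Ttr was 2.88-fold the mean of its group mates, but Enpp2 only 1.07-fold. Kl had an r of only 0.375 with Ttr, 0.361 with Enpp2 and 0.356 with Folr1. Between the 3 detected striatal members and the 4 choroid plexus members, r lay between −0.293 and 0.0941. These libraries share numbers, so that the 16 points are not independent.

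Of 10471 genes with a mean of at least 5 CPM, the 4 most like the mean log2 level of the striatal members were Rap1a (r = 0.85), Nexn (0.846), Pcsk1n (0.831) and Zbtb11os1 (0.818). Those most like the mean log2 level of the choroid plexus members were Ube2m (r = 0.851), Pwp2 (0.845), Nop2 (0.83), Ccpg1os (0.809) and Fam57a (0.795). For single members, the closest genes were Gpm6b for Ppp1r1b (r = 0.862), Ift43 for Penk (0.891), Upf3b for Rgs9 (0.818), Ube2m for Ttr (0.893) and Pwp2 for Enpp2 (0.837). Ube2m stood at 44 CPM in WT replicate 3 at 50 ng and at 26.8 to 30.2 CPM in the other WT libraries. The r of the genes most like the choroid plexus members, Ttr or Enpp2 was not computed without WT replicate 3.

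The next comparison asked how the markers differed between GFAP-IL6 and WT. Each input was tested alone in edgeR, and a call required both an adjusted p under 0.05 and a change of more than 1 on the log2 scale. No member was called at any input, against shares of all genes of 0.28% for 50 ng, 0.266% for 10 ng, 0.0323% for 1 ng and 0.0117% for 0.5 ng. At an unadjusted p under 0.05 stood 2 of 5 tested members at 50 ng, 3 of 5 at 10 ng, 1 of 5 at 1 ng and 1 of 4 at 0.5 ng, beside 663 of 11773, 901 of 12043, 333 of 9276 and 246 of 8571 genes in all. DESeq2, which gave no adjusted p for Ttr, called 0 of the others at each input. The median log2 fold change over the tested members was −0.47, −0.68, −0.38 and −0.61 from 50 to 0.5 ng, and between −0.01 and 0.00 over all genes.

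The direction of Ttr between genotypes depended on WT replicate 3. With all libraries, Ttr was 898 ± 1638 CPM (SD, n = 4) in WT and 171 ± 116 CPM (SD, n = 4) in GFAP-IL6 at 50 ng, and the groups overlapped. The log2 fold change was −2.41 with a standard error of 0.85 (edgeR adjusted p = 0.653), and −2.57 with a standard error of 0.72 at 10 ng (edgeR adjusted p = 0.17). Without WT replicate 3, the WT mean was 78.8 CPM at 50 ng and 62.8 CPM at 10 ng, and the log2 fold change was 1.08 with a standard error of 0.38 (edgeR adjusted p = 0.794) and 1.05 with a standard error of 0.37 (edgeR adjusted p = 0.495). The same change of sign was found at 1 ng, from −2.70 to 1.20, and at 0.5 ng, from −2.77 to 1.49. Under the alternatives at 50 ng, the adjusted p of Ttr lay between 9.829e-33 and 0.952. The low end came from testing with no filter on low counts, under which Ttr was called as lower in GFAP-IL6 at all 4 inputs, and at 10 ng Ttr was called also without WT replicate 1 or 4.

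Enpp2 differed little between genotypes. It was 299 ± 83.3 CPM (SD, n = 4) in WT and 257 ± 16.2 CPM (SD, n = 4) in GFAP-IL6 at 50 ng. The log2 fold change was −0.25 with a standard error of 0.17 (edgeR adjusted p = 0.836), and −0.04 with a standard error of 0.18 without WT replicate 3 (edgeR adjusted p = 0.981). At 10 ng it was −0.24 and, without WT replicate 3, −0.04, and at 0.5 ng it was 0.12, opposite in sign to Ttr. Over all libraries of 50 and 10 ng other than WT replicate 3, the level lay between 215 and 272 CPM in both genotypes.

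Ppp1r1b had lower values in GFAP-IL6, without overlap at the 2 highest inputs, but did not pass the test. At 50 ng, it was 139 ± 23.3 CPM (SD, n = 4) in WT and 87.3 ± 21.7 CPM (SD, n = 4) in GFAP-IL6, a log2 fold change of −0.72 with a standard error of 0.20 (edgeR adjusted p = 0.269). At 10 ng, it was 123 ± 25.1 CPM (SD, n = 4) and 78.7 ± 5.93 CPM (SD, n = 4), a log2 fold change of −0.68 with a standard error of 0.17 (edgeR adjusted p = 0.0706). It was the 1 member of 8 whose groups did not overlap, in a table where 1.16% of tested genes at 50 ng and 1.34% at 10 ng were without overlap and lower in GFAP-IL6. At 1 and 0.5 ng no member had groups without overlap, and the shares over all genes were 1.39% and 1.34%. Over the alternatives, the adjusted p of Ppp1r1b ranged from 0.041 to 1 at 50 ng and from 0.0093 to 0.594 at 10 ng, and its log2 fold change did not reach −1 in any of them. The high ends were reached with the mean log2 level of the 4 striatal members as a covariate. That level includes Ppp1r1b itself, so this setting cannot show how firm the difference was.

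Penk and Rgs9 overlapped between genotypes. Penk was 98.6 ± 28.8 CPM (SD, n = 4) in WT and 73.2 ± 24.9 CPM (SD, n = 4) in GFAP-IL6 at 50 ng, with a log2 fold change of −0.47 and a standard error of 0.25 (edgeR adjusted p = 0.835). At 10 ng the log2 fold change of Penk was −0.51 with a standard error of 0.20 (edgeR adjusted p = 0.519). For Rgs9 it was −0.26 with a standard error of 0.48 at 50 ng (edgeR adjusted p = 0.915), and −0.69 with a standard error of 0.52 at 10 ng (edgeR adjusted p = 0.789). Of the further striatal genes, 13, 13, 9 and 10 were tested from 50 to 0.5 ng and none was called. Their median log2 fold change was −0.11 and −0.09 at 50 and 10 ng, and −0.56 and −0.65 at 1 and 0.5 ng.

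**Figure D5:**
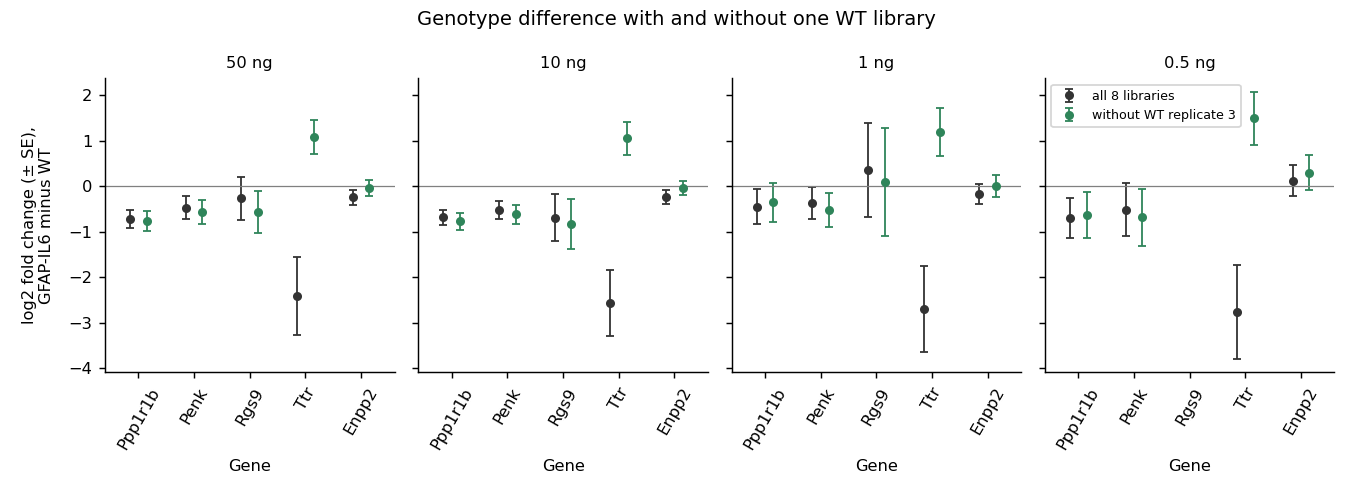
Log2 fold change between GFAP-IL6 and WT with its standard error for the tested members at each RNA input in ng, with all 8 libraries (black) and without WT replicate 3 (green). Ttr moves from −2.41 to 1.08 at 50 ng, while Ppp1r1b stays at −0.72 and −0.76.

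Lower RNA input was compared with 50 ng over both genotypes. Of the 6 members tested, none was called at 10, 1 or 0.5 ng, where 0%, 0.255% and 4.34% of all genes were called in edgeR. At 10 ng no gene was called by edgeR or by DESeq2 (0 genes each), and 65 genes had an unadjusted p under 0.05. 0 members at 10 ng, 1 at 1 ng and 1 at 0.5 ng had an unadjusted p under 0.05, beside 1003 of 12164 genes at 1 ng and 2431 of 12164 at 0.5 ng, and DESeq2 called 0 of those for which it gave an adjusted p, which left out Ttr at each input and Rgs9 and Folr1 at 1 ng. The member at 1 ng was Enpp2, with a log2 fold change of −0.41 and a standard error of 0.18 (edgeR adjusted p = 0.464). The member at 0.5 ng was Rgs9, with −1.71 and a standard error of 0.71 (edgeR adjusted p = 0.152), from a mean of 6.86 CPM at 50 ng and 1.76 CPM at 0.5 ng. For Ttr the log2 fold change was −0.24, −0.28 and −0.32 at 10, 1 and 0.5 ng, each with a standard error between 0.86 and 0.88. Libraries of the same number were not paired in this test. The spread at low input was wide for single genes: Penk had 169 CPM in WT replicate 2 at 0.5 ng and 62.5 to 68.2 CPM in the other WT libraries, an order that differed from that at 50 ng below replicate 2.

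The members' levels were also set beside the spread between libraries of one group. The spread was expressed as edgeR's biological coefficient of variation (BCV), the common between-library variation over all genes tested. It was 0.214 at 50 ng and 0.238 at 10 ng. With the mean log2 level of the 4 striatal members as a covariate it was 0.22 and 0.244, and with that of the choroid plexus members 0.224 and 0.24. Leaving out WT replicate 3 gave 0.227 and 0.243, and leaving out GFAP-IL6 replicate 4 gave 0.13 and 0.227. At 50 ng, the number of genes called between genotypes was 33 with no covariate, 24 with the striatal covariate, 34 with the choroid plexus covariate, 23 without WT replicate 3 and 59 without GFAP-IL6 replicate 4. At 10 ng the same settings gave 32, 32, 30, 23 and 28 genes, so that neither the fall with the striatal covariate nor the rise without GFAP-IL6 replicate 4 was seen there. GFAP-IL6 replicate 4 had the lowest summed level of the striatal members at 50 ng, 103.4 CPM, and of the choroid plexus members, 315.8 CPM, within its group. WT replicate 3, which carried 3797 CPM of the choroid plexus members at 50 ng, had a mean r of 0.971 with the other WT libraries, which lay between 0.964 and 0.977.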

How the data were processed

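Raw counts per gene were deposited by the authors for 32 libraries of 3'Pool-seq, an oligo-dT primed method that reads the 3′ end of mRNA. According to the study's methods, poly(A) was trimmed, reads were aligned to mm10 with STAR 2.4 and unique reads were counted with featureCounts on a GENCODE annotation; the submitters' processing notes name hg19, a human build. PCR copies were not marked by molecular identifiers, and strand use in counting is not given in the sources used here. A column of gene lengths was not used.

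CPM were counts divided by the library total, with no length correction. Of 33000 genes all 8 members were found by symbol. Coordinates and overlaps came from GENCODE vM21 (GRCm38), matched by gene identifier, chromosome and strand. edgeR 4.0.16 (R 4.3.3) was run with TMM, filterByExpr and Benjamini-Hochberg adjustment over all genes tested; alternatives were DESeq2 1.42.0 and its size factors, no filter, the replicate number as a block, the marker scores as covariates, and leaving out each library or number. A floor of 3 counts covers counting error only. Counts of all 48 replicate pairs differed by more than sampling noise (chi-square over degrees of freedom at least 2.15), so no library was counted as a copy. Fits were tested on simulated data. p-values measure only the spread between these libraries, which may be technical. Members and gene lists were chosen with earlier results of these data known. The text names the members, at most the 4 highest genes of each list, and the genes most like each score or member; exceptions are stated, and 1 gene that the rule names is not reported here.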

Additional observations from a re-analysis of the deposited data

Results flagged for a closer look

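In 58 groups of 4 libraries, 17 had 1 library farther from the others than Dixon's 95% limit. Chance gives about 1 in 20 groups, but that rate does not apply to 7 of the 17, where the other 3 libraries were at 0 and any count passes, and groups that hold the same number at different inputs are not independent. For Ttr this was WT replicate 3 at every input, with 3355, 3003, 3079 and 3110 CPM from 50 to 0.5 ng. For Folr1 it was WT replicate 3 with 13.9 CPM at 50 ng, 13.6 CPM at 10 ng and 12.3 CPM at 0.5 ng. For Enpp2 it was WT replicate 3 with 400 CPM at 10 ng.

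For Kl the libraries were WT replicate 3 at 1 ng with 4.02 CPM, WT replicate 1 at 0.5 ng with 11.6 CPM and GFAP-IL6 replicate 4 at 1 ng with 5.71 CPM. For Penk they were WT replicate 2 with 169 CPM and GFAP-IL6 replicate 3 with 154 CPM, both at 0.5 ng. The 4 Adora2a libraries rest on 1 count each: 0.278 CPM in WT replicate 3 and 0.179 CPM in GFAP-IL6 replicate 4 at 50 ng, and 0.119 CPM in WT replicate 4 and 0.939 CPM in GFAP-IL6 replicate 2 at 10 ng. Explanations were not tested.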

How the results depend on the processing

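The number of genes called between genotypes at 50 ng was 33, and 80 with no filter on low counts and 11 to 59 leaving out 1 library (59 without GFAP-IL6 replicate 4). At 10 ng it was 32, and 52 in DESeq2. At 1 ng it was 3, and 9 with no filter, 11 in DESeq2 and 6 with the replicate block. At 0.5 ng it was 1, and 4 with no filter, 16 in DESeq2 and 1 to 2 leaving out 1 library. Between numbers in WT, 219 genes became 338 with no filter, 375 in DESeq2, 39 with all 4 inputs, 955 with WT alone and 19 to 402 leaving out 1 number (19 without replicate 3). In GFAP-IL6, 3829 became 173 with all 4 inputs and 494 to 4354 leaving out 1 number (494 without replicate 4). Against 50 ng, 31 genes at 1 ng became 20 in DESeq2 and 14 to 20 leaving out 1 number, and 528 at 0.5 ng became 1037 with no filter. The causes were not tested.

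With no filter, 1 member (Ttr) was called between genotypes at each input, and 0 to 1 leaving out 1 library at 10 ng. Between numbers, 2 members were called in WT and 1 in GFAP-IL6 with all 4 inputs, and 3 to 6 and 1 to 3 leaving out 1 number.

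Signs turned for values that were not called. The genotype log2 fold change of Ttr ran from −2.94 to 1.08 at 50 ng, −3.25 to 1.05 at 10 ng, −3.11 to 1.20 at 1 ng and −3.18 to 1.49 at 0.5 ng leaving out 1 library, positive each time without WT replicate 3, and was 0.53 at 0.5 ng with the replicate block. That of Rgs9 was 0.0033 with the replicate block at 50 ng, 0.82 and 0.43 with the striatal covariate at 50 and 10 ng, and −0.58 to 0.13 at 50 ng and −0.019 to 0.87 at 1 ng leaving out 1 library. The striatal covariate includes Rgs9 itself, so the sign under it cannot show how firm the direction was. The genotype log2 fold change of Enpp2 ran from −0.27 to 0.011 at 1 ng and −0.078 to 0.37 at 0.5 ng leaving out 1 library. Against 50 ng, Folr1 ran from −1.20 to 0.16 at 10 ng, Rgs9 from −0.019 to 0.37 at 1 ng and Penk from −0.40 to 0.065 at 0.5 ng. Of 502 single values under alternatives, 460 kept direction and side of the threshold, 20 turned sign, 15 lost a call, 6 gained one and 1 moved.

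Libraries with the same number shared deviations in part (r between 50 and 10 ng 0.0772 to 0.237 in WT and 0.0516 to 0.51 in GFAP-IL6). The sources used here did not state whether they came from the same mouse, so the main input comparisons did not pair them. Each of the 4 WT libraries at 50 ng correlated best with its own number at 10, 1 and 0.5 ng. Of the 4 GFAP-IL6 libraries at 50 ng, 3, 4 and 3 did so. Between genotypes, the replicate block joined WT and GFAP-IL6 libraries that shared only a number and came from different mice. The deviations of such libraries had an r between −0.00259 and 0.189 over the 4 inputs. With this block, 36, 47, 6 and 1 genes were called from 50 to 0.5 ng, and no member's call changed. Against 50 ng, a different block was used, with a term for each number of each genotype, and it narrowed the standard error of Ttr. The log2 fold change of Ttr was then −0.35, −0.43 and −0.49 at 10, 1 and 0.5 ng with standard errors of 0.15, 0.16 and 0.16 (edgeR adjusted p = 1, 0.22 and 0.0413), under 1 in size and so not called. Members at an unadjusted p under 0.05 then numbered 1, 3 and 3. Kl, Folr1 and Adora2a were limited by depth.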
